A study of Mus musculus with 3 samples.

Results

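The vesicular glutamate transporters load glutamate into synaptic vesicles and so mark neurons that release glutamate. Slc17a6 (VGLUT2) is the main form of the thalamus and of many developing neurons, Slc17a7 (VGLUT1) is the main form of the maturing cerebral cortex, and Slc17a8 (VGLUT3) is found in scattered neurons that often release a further transmitter. The thalamus relays sensory signals to the cortex, and its neurons are known for the netrin-G1 gene Ntng1, the transcription factor genes Tcf7l2, Gbx2 and Rora, and the kinase gene Prkcd. None of these genes belongs to the thalamus alone: Rora is also active in layer 4 of the cortex, and Calb2, which encodes calretinin, marks cortical interneurons and Cajal-Retzius cells as well as midline thalamic neurons. The 10 genes examined were the 3 transporters, Ntng1 and its paralog Ntng2, Tcf7l2, Prkcd, Gbx2, Calb2 and Rora. Every non-control probe carrying one of these symbols was taken, which gave 10 of the 35591 symbols or systematic names and 17 of the 55681 non-control probes on the array, 15 named through a RefSeq accession and 2 (1 of Ntng1 and 1 of Rora) through the authors' deposited table.

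RNA of the brain dorsal cortex came from Brpf1-deficient pups, labelled Cy5, and wild-type pups, labelled Cy3, all untreated and killed at postnatal day 4. The thalamus was not the tissue sampled, and whether any thalamic RNA was present was not tested. Brpf1 encodes a scaffold of histone acetyltransferase complexes. Each of 3 two-colour Agilent arrays paired 1 sample of each label, and no dye swap was made. The labels do not give the allele, any Cre driver, the strain or the litters, so p-values measure the spread between these 3 arrays.

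All 3 arrays lay on 1 slide and shared 1 scan time. Of the non-control spots, 57.9% to 58.2% were well above background in Cy5 and 59.9% to 61.0% in Cy3, no spot was saturated, and between arrays the ratios had a Pearson r of 0.485 to 0.703 across probes, which are not independent replicates. All 10 neuron and cortex markers examined were detected. The 1 probe of Brpf1 itself was brighter in the channel labelled Brpf1-deficient, the log2 ratio (Cy5 over Cy3) being 0.62, 0.73 and 0.96 (limma adjusted p = 0.00448), and a log fold change of -0.80 stands in the authors' deposited table. The probe's place relative to any deleted part of the gene is unknown here, and a probe outside that part could not show its loss. Why this probe was brighter in Cy5 was not tested. Ratios are therefore reported by dye, with positive values brighter in Cy5, and which genotype a direction belongs to is not settled. With 1 dye per genotype on every array, dye and genotype cannot be told apart.

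Before the values, the promoters of 4 genes are shown, those with an entry in the table used whose gene passed the test below at every probe. Slc17a6 and Prkcd have 2 entries each, of which the one at the outermost start is printed. Slc17a6 and Ntng1 were brighter in Cy3, Slc17a7 and Prkcd in Cy5. Each sequence holds the 250 bases before the start site, 5′ to 3′ on the strand of the gene, from RefSeq (GRCm38.p6). Capitals mark matches on either strand to a GC box (GGGCGG), a nuclear receptor core (AGGTCA), a TCF/LEF core (CTTTGA) or a homeodomain core (TAATTA).
Slc17a6, chr7:51621580-51621829, plus strand: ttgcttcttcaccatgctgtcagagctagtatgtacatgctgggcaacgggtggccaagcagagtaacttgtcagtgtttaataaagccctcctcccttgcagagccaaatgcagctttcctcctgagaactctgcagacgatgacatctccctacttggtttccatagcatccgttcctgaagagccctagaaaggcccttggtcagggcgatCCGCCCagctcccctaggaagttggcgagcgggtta
Slc17a7, chr7:45163671-45163920, plus strand: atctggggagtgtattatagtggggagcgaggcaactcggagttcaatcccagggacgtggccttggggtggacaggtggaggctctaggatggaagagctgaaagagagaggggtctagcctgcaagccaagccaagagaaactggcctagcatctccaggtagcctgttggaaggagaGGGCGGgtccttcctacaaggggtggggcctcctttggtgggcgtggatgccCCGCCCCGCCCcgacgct
Ntng1, chr3:110143473-110143722, minus strand: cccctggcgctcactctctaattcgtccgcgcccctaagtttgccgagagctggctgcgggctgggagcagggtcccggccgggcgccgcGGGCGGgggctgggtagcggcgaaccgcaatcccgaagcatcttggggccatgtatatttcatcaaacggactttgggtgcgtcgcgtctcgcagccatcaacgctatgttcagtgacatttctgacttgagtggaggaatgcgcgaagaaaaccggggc
Prkcd, chr14:30626209-30626458, minus strand: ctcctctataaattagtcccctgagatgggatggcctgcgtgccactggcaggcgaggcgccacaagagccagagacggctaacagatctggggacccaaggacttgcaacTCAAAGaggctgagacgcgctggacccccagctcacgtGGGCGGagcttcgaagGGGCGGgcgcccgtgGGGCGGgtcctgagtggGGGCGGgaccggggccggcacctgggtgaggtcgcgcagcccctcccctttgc

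The Slc17a6 and Ntng1 sequences each held 1 GC box, the Slc17a7 sequence 3, of which a pair overlaps by 1 base, and the Prkcd sequence 4. At least 1 GC box is present in 32.7% of all 32851 promoter sequences of this length. The Prkcd sequence also held 1 TCF/LEF core, present in 13.8% of them, and none of the 4 printed sequences held the nuclear receptor core (14.0%) or the homeodomain core (4.84%). The other Slc17a6 entry (chr7:51624387-51624636) held 1 homeodomain core and no GC box, with 3 CpG dinucleotides. The other Prkcd entry (chr14:30610311-30610560) held none of the 4 motifs and 1 CpG dinucleotide. In the printed sequences CpG dinucleotides numbered 7 in Slc17a6, 9 in Slc17a7, 25 in Ntng1 and 18 in Prkcd, against a median of 6 over all promoters. A match is a run of letters in this window, not a bound site.

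Across the 10 genes the differences ran both ways. All 17 probes were detected by the filter used, which kept those well above background in either channel on 2 arrays or more. Of the 17, 4 were brighter in Cy5 and 6 in Cy3 at an adjusted p under 0.05 in limma, fitted over 32973 probes, of which 7.53% were called brighter in Cy5 and 9.42% in Cy3 (17.0% together). The genes were chosen with earlier results of these data known, so this share is not independent of the outcome. Nor was the naming of 2 of the 17 probes through the authors' table. The 6 probes brighter in Cy3 were those of Slc17a6 and Calb2, all 3 of Ntng1 and 1 of 3 of Tcf7l2. With 1 probe per gene, the brightest, 3 of the 10 genes were called towards each channel (7.97% of 23299 genes for Cy5 and 9.20% for Cy3). The 4 probes brighter in Cy5 were those of Slc17a7, both of Prkcd and 1 of 2 of Slc17a8. Ntng2, Gbx2 and both probes of Rora were not called. After normalization of both channels, the 3 Cy5 values lay wholly above the 3 Cy3 values for 3 of the 17 probes (15.6% of all probes) and wholly below them for 6 (20.3% of all probes, 36.0% for both directions together). The median size of the log2 ratio was 0.38 over the 17 probes and 0.14 over all probes. In a tissue sample, fewer cells of a type and less RNA per cell cannot be told apart.

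**Figure D1:**
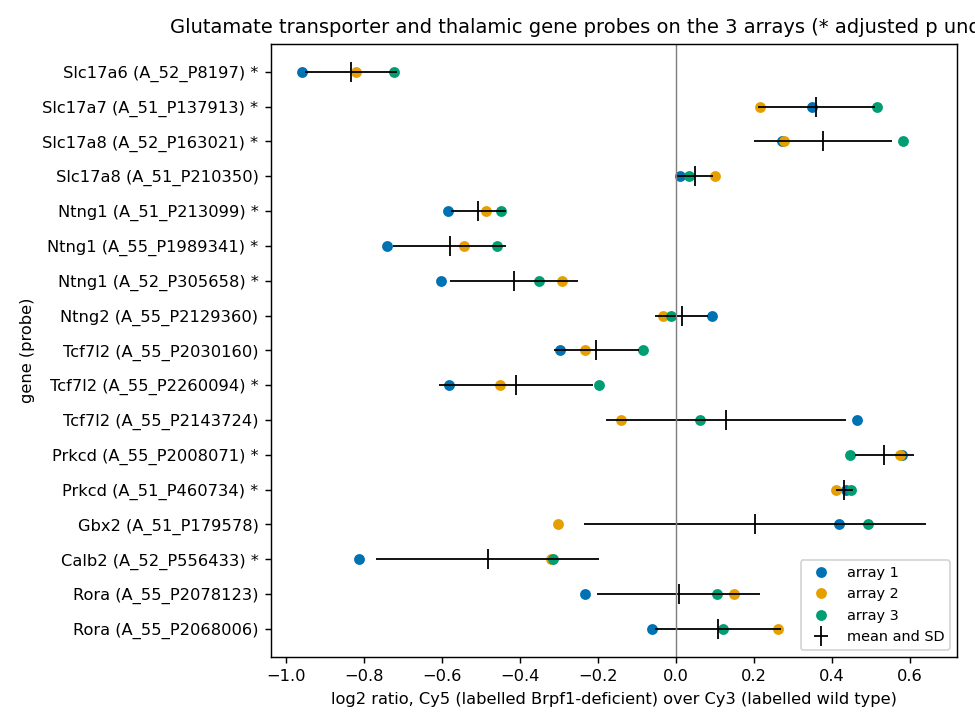
Log2 ratio of Cy5 (labelled Brpf1-deficient) over Cy3 (labelled wild type) for the 17 probes of the 10 genes. Points are the 3 arrays, bars the mean and SD, and asterisks mark an adjusted p under 0.05. Slc17a6 lies between -0.96 and -0.72 on every array and both Prkcd probes lie between 0.41 and 0.58.

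Of the transporters, Slc17a6 showed the largest difference, and in the opposite direction to the others. Its probe (A_52_P8197) had normalized log2 intensities of 13.92, 13.93 and 13.88 in Cy5, against 14.88, 14.75 and 14.61 in Cy3 on arrays 1, 2 and 3. The channels did not overlap, and the Cy5 values lay within a narrow band while the Cy3 values varied more. The log2 ratio was -0.96, -0.82 and -0.72, with a mean of -0.83 ± 0.12 (SD, n = 3 arrays, limma adjusted p = 0.0020), a signal 1.78-fold brighter in Cy3. Before normalization the median spot signals were 22805, 20995.5 and 20494 in Cy5, against 24312, 18333 and 17329.5 in Cy3, so the direction on arrays 2 and 3 rests on the balancing of the dyes. The median signal over all spots was 271 to 307 in Cy5, against 151 to 187.5 in Cy3. With each array centred on its median in place of loess, the ratio was -0.57 (adjusted p = 0.0112), and with the median of each intensity bin at 0 it was -0.76. The bin that holds this probe had a median log2 ratio of -0.07. Of the 3005 probes at least as bright as that of Slc17a6, 14, itself included, had a ratio at or below it, and it ranked 139 from the lowest of the 3106 called brighter in Cy3.

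Slc17a7 was brighter in Cy5. Its log2 intensities were 10.45, 10.29 and 10.35 in Cy5, against 10.10, 10.08 and 9.84 in Cy3, with no overlap. The log2 ratio was 0.35, 0.21 and 0.51, with a mean of 0.36 ± 0.15 (SD, n = 3 arrays, limma adjusted p = 0.0297), or 1.28-fold. The call was lost without array 3 (0.28, adjusted p = 0.146), when the channels were not paired by array (adjusted p = 0.0850), and with the processed (adjusted p = 0.0592) or plainly subtracted signals (adjusted p = 0.0790). On each array Slc17a7 exceeded Slc17a6 in log2 ratio, by 1.31, 1.04 and 1.24 (mean difference 1.19 ± 0.14, SD, n = 3 arrays). An exact sign permutation over 3 arrays cannot go below a two-sided p of 0.25, so that difference was not tested further.

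The Slc17a8 probes disagreed in size. The probe A_52_P163021 had log2 intensities of 8.96, 9.39 and 9.34 in Cy5, against 8.69, 9.11 and 8.76 in Cy3. Cy5 was the brighter channel on every array, but the levels of the arrays differed so that the channels overlapped. The log2 ratio was 0.27, 0.28 and 0.58, with a mean of 0.38 ± 0.18 (SD, n = 3 arrays, limma adjusted p = 0.0304), a call lost without array 3 (0.27, adjusted p = 0.149), without pairing (adjusted p = 0.182), and with the processed (adjusted p = 0.0561) or plainly subtracted signals (adjusted p = 0.0753). The other probe, A_51_P210350, of nearly the same intensity, had log2 ratios of 0.0089, 0.099 and 0.033 (mean 0.047 ± 0.047, adjusted p = 0.653). The probes differed by 0.26, 0.18 and 0.55 on the 3 arrays, so a change of Slc17a8 rests on 1 of its 2 probes.

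**Figure D2:**
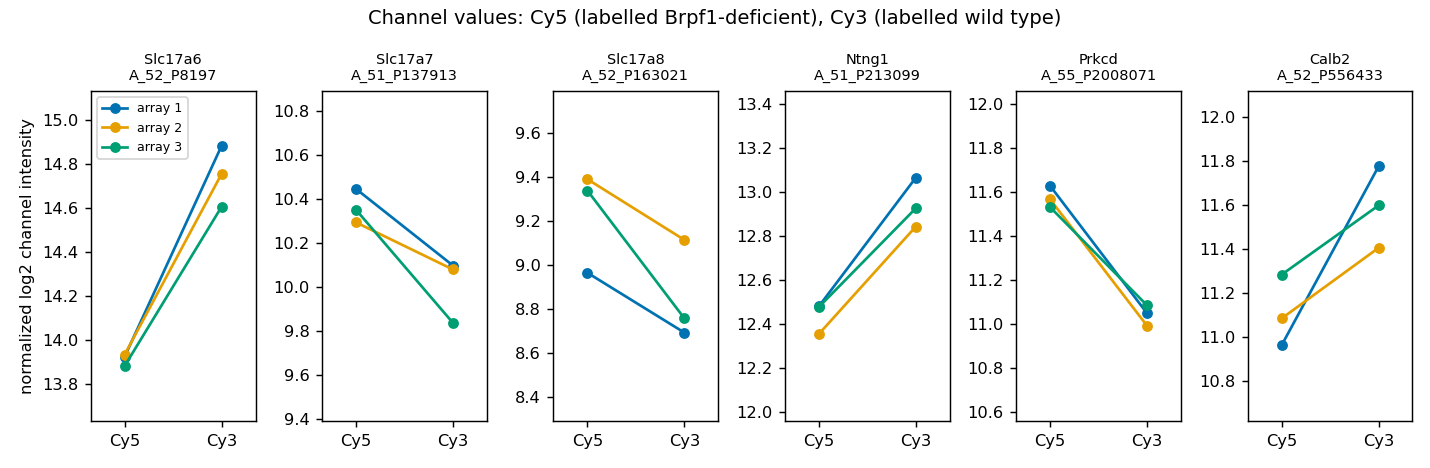
Normalized log2 intensity of 6 probes in Cy5 (labelled Brpf1-deficient, left) and Cy3 (labelled wild type, right). Lines join the channels of 1 array, and every panel spans the same range. Slc17a6, Ntng1 and Calb2 slope up towards Cy3 on all 3 arrays, Slc17a7, Slc17a8 and Prkcd down.

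Ntng1 encodes netrin-G1, a membrane-anchored protein of thalamocortical axons that binds the netrin-G ligand NGL-1, the product of Lrrc4c. Its 3 probes were all brighter in Cy3. The brightest, A_51_P213099, is printed at 10 spots and had log2 intensities of 12.48, 12.36 and 12.48 in Cy5, against 13.07, 12.84 and 12.93 in Cy3. The channels did not overlap, and the log2 ratio averaged -0.51 ± 0.07 (SD, n = 3 arrays, limma adjusted p = 0.00895). Its 10 spots ran between -0.71 and -0.48 on array 1, between -0.54 and -0.41 on array 2 and between -0.50 and -0.39 on array 3, with an SD between spots of 0.036 to 0.066. Every spot was thus brighter in Cy3 after normalization. Before normalization the spot signals averaged 8092.8, 6660.9 and 7316 in Cy5, against 7452.8, 5056.05 and 5672.35 in Cy3 on arrays 1, 2 and 3. The direction of this probe thus rests on the balancing of the dyes on every array. This probe got its name from the authors' deposited table, which lists only probes up to a p-value limit. Its place among the 17 probes was thus not independent of its result.

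The other Ntng1 probes, named through RefSeq, gave like values. A_55_P1989341 had log2 intensities of 10.69, 10.86 and 10.98 in Cy5, against 11.43, 11.41 and 11.44 in Cy3, a log2 ratio of -0.58 ± 0.14 (SD, n = 3 arrays, limma adjusted p = 0.00883). A_52_P305658 had 9.11, 9.19 and 9.22 in Cy5, against 9.72, 9.49 and 9.58 in Cy3, a log2 ratio of -0.42 ± 0.17 (adjusted p = 0.0223). Neither overlapped between channels. The call of this dimmest probe was lost without array 3 (adjusted p = 0.0515), without pairing (adjusted p = 0.0504), with median centring (adjusted p = 0.0501) and with the processed signals (adjusted p = 0.0649). Plain background subtraction ended the call of all 3 Ntng1 probes (adjusted p = 0.0566 to 0.0720), at ratios of -0.50, -0.60 and -0.47. That setting left 450 calls over all probes, against 5589. Before processing, A_52_P305658 was brighter in Cy5 on every array (746, 707 and 731, against 720.5, 487 and 568). A_55_P1989341 was so on arrays 2 and 3 (2360 and 2528.5, against 1898 and 2052.5). There the direction appears only after background correction and dye balancing.

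Ntng2, which encodes the paralog netrin-G2, had a single dim probe, well above background in Cy5 on 1 array and in Cy3 on all 3. Its log2 intensities were 7.68, 7.28 and 7.32 in Cy5, against 7.59, 7.32 and 7.33 in Cy3. The log2 ratio of 0.014 ± 0.067 (SD, n = 3 arrays, limma adjusted p = 0.902) had no common sign over the arrays. Ntng2 lay above the brightest Ntng1 probe in log2 ratio by 0.68, 0.45 and 0.43 on the 3 arrays.

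Of the netrin-G ligands, which sit on the partner dendrite, Lrrc4c was brighter in Cy3 at -0.44 ± 0.35 (SD, n = 3 arrays, limma adjusted p = 0.0489). Its array values of -0.84, -0.29 and -0.20 were uneven, the call held in 4 of 12 alternatives, and array 1 carried the largest part. Lrrc4 had -0.13 ± 0.13 and Lrrc4b -0.05 ± 0.06, and neither was called (no ligand was brighter in Cy5, also at an unadjusted p under 0.05, though 1 was with median centring).

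Prkcd, which encodes protein kinase C delta and marks sensory thalamic neurons in the mouse, was brighter in Cy5, the reverse of Slc17a6 and Ntng1. The probe A_55_P2008071 had log2 intensities of 11.63, 11.57 and 11.53 in Cy5, against 11.05, 10.99 and 11.08 in Cy3. The log2 ratio was 0.58, 0.57 and 0.45, with a mean of 0.53 ± 0.08 (SD, n = 3 arrays, limma adjusted p = 0.00813), or 1.45-fold. The probe A_51_P460734 had 11.47, 11.40 and 11.42 in Cy5, against 11.03, 10.99 and 10.97 in Cy3, with a log2 ratio of 0.43 ± 0.02 (adjusted p = 0.0125). Neither probe overlapped between channels. The 2 probes held their calls in 11 of 12 and 10 of 11 alternatives, the exception being plain background subtraction (adjusted p = 0.0525 and 0.0570). With that subtraction their ratios were 0.56 and 0.46. Prkcd exceeded the brightest Ntng1 probe by 1.16, 1.06 and 0.90 on the 3 arrays.

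Calb2 encodes the calcium-binding protein calretinin. Its log2 intensities were 10.96, 11.08 and 11.28 in Cy5, against 11.77, 11.40 and 11.60 in Cy3, without overlap. The log2 ratio was -0.81, -0.32 and -0.31, with a mean of -0.48 ± 0.29 (SD, n = 3 arrays, limma adjusted p = 0.0294), brighter in Cy3. Array 1 stood apart from the other arrays in size but not in direction, and without it the ratio was -0.32 and still called. The call was lost without pairing (adjusted p = 0.0800), with the processed signals (adjusted p = 0.0691), with median centring (adjusted p = 0.0778) and with plain background subtraction (adjusted p = 0.0881). Before normalization the median spot signals were 2792, 2730 and 3119 in Cy5, against 3082, 1880 and 2288.5 in Cy3. The direction of Calb2 on arrays 2 and 3 thus rests on the balancing of the dyes.

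Of the transcription factor genes, Tcf7l2, which encodes an effector of Wnt signalling with high levels in the thalamus, was split between probes annotated to different transcripts. The probe A_55_P2260094 had log2 intensities of 7.26, 7.35 and 7.68 in Cy5, against 7.84, 7.81 and 7.87 in Cy3. Before background correction and normalization its signals were 218, 219 and 270 in Cy5, against 193, 161 and 175 in Cy3. The local background there was 163, 139 and 138 in Cy5, against 64, 54 and 52 in Cy3. The direction of this probe thus appears only after processing. Its log2 ratio was -0.58, -0.45 and -0.20, with a mean of -0.41 ± 0.20 (SD, n = 3 arrays, limma adjusted p = 0.0272), a call lost without array 1 (-0.32, adjusted p = 0.0504) and without pairing (adjusted p = 0.0933). With plain background subtraction the same probe had -0.80 and with the processed signals -0.62, neither called (adjusted p = 0.0856 and 0.0950), so the size of a ratio at this low signal depends on how background is removed. The brightest Tcf7l2 probe, A_55_P2030160, had -0.21 ± 0.11 (adjusted p = 0.0963). The third, A_55_P2143724, had 0.46, -0.14 and 0.06, without a common sign (adjusted p = 0.447), and was well above background in Cy5 on 2 arrays. Across the 3 probes the mean ratios spanned 0.54.

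Gbx2, a homeobox gene needed for thalamic neurons and their axons, had a single dim probe with log2 intensities of 7.78, 7.37 and 8.37 in Cy5, against 7.36, 7.67 and 7.88 in Cy3. Array 2 went against arrays 1 and 3, with log2 ratios of 0.42, -0.30 and 0.49 (mean 0.20 ± 0.44, SD, n = 3 arrays, limma adjusted p = 0.351). Without array 2 the ratio was 0.45 and called (adjusted p = 0.00607), so 1 array decides this gene.

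Rora encodes an orphan nuclear receptor. The bright probe A_55_P2078123 had log2 intensities of 11.62, 12.02 and 11.96 in Cy5, against 11.86, 11.87 and 11.85 in Cy3. The Cy3 values were almost the same on the 3 arrays, while Cy5 fell below them on array 1 and above on arrays 2 and 3, and the log2 ratio was 0.0061 ± 0.21 (SD, n = 3 arrays, limma adjusted p = 0.968). The other probe, A_55_P2068006, had -0.06, 0.26 and 0.12 (adjusted p = 0.383). Both probes were lowest on array 1.

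**Figure D3:**
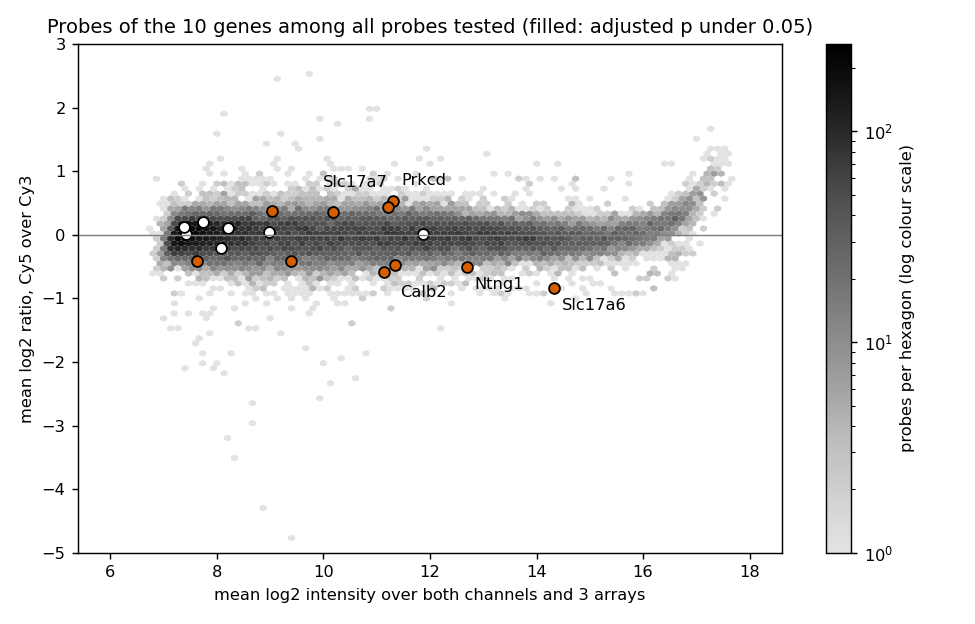
Mean log2 ratio of Cy5 over Cy3 against mean log2 intensity for all 32973 probes tested (grey, log colour scale) and the 17 probes of the 10 genes (circles, filled where the adjusted p was under 0.05). Slc17a6, at an intensity of 14.33, lies at the lower edge of the cloud, apart from the bend of the very brightest probes towards Cy5.

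Array 1 gave the largest log2 ratio in size for 11 of the 17 probes, array 2 for 2 and array 3 for 4. The median size over the 17 probes was 0.44, 0.29 and 0.35 on arrays 1, 2 and 3. Of the 17 probes, 12 had the same sign on all arrays. The SD over arrays had a median of 0.15 for these probes, against 0.12 for all probes tested.

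In the authors' deposited table, 16 of the 17 probes are listed, and all 16 have the opposite sign to the ratios here. The authors' deposited table gives Slc17a6 a log fold change of 0.84 (p = 0.00124, adjusted p = 0.237 in limma), Slc17a7 one of -0.40, the Ntng1 probes 0.51, 0.60 and 0.47, and the Prkcd probes -0.56 and -0.45. The adjusted p-values of the 16 probes in the authors' deposited table lie between 0.237 and 0.620. For these genes the sizes lie near those above with the sign turned. For dimmer probes they are larger in the authors' deposited table, at 0.74 for Tcf7l2 A_55_P2260094 (-0.41 here), -0.36 for A_55_P2143724 (0.13 here), -0.41 for Gbx2 (0.20 here) and -0.11 for Ntng2 (0.014 here). The probe that the table leaves out is the bright one of Rora, with a log2 ratio of 0.0061 here.

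The genes whose ratios on the 3 arrays lay nearest to those of Slc17a6, by root mean square difference, were Flrt3, Tslrn1 and Fgf18. Flrt3, which encodes a membrane protein of axon guidance and synapses, had -1.06, -0.79 and -0.70, at a distance of 0.065. Tslrn1 had -0.93, -0.71 and -0.69 at a dim probe well above background in Cy5 on 2 arrays, at a distance of 0.071, and the growth factor gene Fgf18 had -0.86, -0.88 and -0.64, at 0.083. With 3 arrays, many genes can lie this close.

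Transporters of other transmitters were compared with those of glutamate. Tested with 1 probe each, 7.97% of all genes were called in Cy5 and 9.20% in Cy3 (17.2% together). These shares stand beside the lists below. Of 10 genes on the array (vesicular transporters of GABA, monoamines and acetylcholine, and further SLC17 members), 5 passed the filter and 2 of these were called towards Cy5. Towards Cy3 there was no call by limma, 1 gene at an unadjusted p under 0.05, and 1 call without array 2. Slc18a3, the vesicular acetylcholine transporter, had 0.50 ± 0.36 (SD, n = 3 arrays, limma adjusted p = 0.0389), with array values of 0.86, 0.15 and 0.47. Slc32a1, the vesicular GABA transporter, had 0.33 ± 0.21 (adjusted p = 0.0486), with its other probe at 0.50. Slc18a2 had 0.26 ± 0.27, Slc17a5 -0.28 ± 0.26 and Slc17a3 0.04 ± 0.18, none of them called, and the other probes of Slc18a2, at -0.12, and Slc17a5, at 0.24, had the opposite sign. No call in this list was left without array 3, without pairing, with the processed signals or with plain background subtraction.

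Of 14 genes that supply or clear glutamate, 1 was brighter in Cy5 and 2 in Cy3. This lay near the shares of all genes, 7.97% and 9.20%. Slc1a3, the astrocyte transporter GLAST, had -0.38 ± 0.05 (SD, n = 3 arrays, limma adjusted p = 0.0176). Gls2, which encodes a glutaminase, had 0.33 ± 0.14 (adjusted p = 0.0340). With median centring, 5 were called, all towards Cy5. No gene was called without array 3, with the processed signals or with plain background subtraction. The list's median log2 ratio was 0.06, against -0.01 over all probes.

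Among 15 close relatives of Tcf7l2, Gbx2, Calb2, Rora and Prkcd, 3 were called towards Cy5 (7.97% of all genes). No relative was called towards Cy3 by limma, against 2 at an unadjusted p under 0.05, and 1 was called without background correction and with the processed signals. Rorb, the receptor gene nearest to Rora and a marker of layer 4, had 1.04 ± 0.05 (SD, n = 3 arrays, limma adjusted p = 0.00048), with its other probe at 0.87. The kinase gene Prkch, at 0.48 ± 0.07, went the same way as Prkcd (adjusted p = 0.0105). The remaining 12 were not called.

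Other genes of the thalamus did not share a direction: of 12 measured of 13, 3 were brighter in Cy5, 1 in Cy3 and 8 were not called. Among all genes the called shares were 7.97% in Cy5 and 9.20% in Cy3. Slc6a4, the serotonin transporter that thalamic neurons express for a time after birth, had 0.73 ± 0.15 (SD, n = 3 arrays, limma adjusted p = 0.00461) with a Cy3 signal above background on 2 arrays. Ramp3, a receptor partner, had 0.55 ± 0.26 (adjusted p = 0.0185), and the calcium channel gene Cacna1g 0.38 ± 0.14 (adjusted p = 0.0247) with its other probe at -0.04. Plcb4, a phospholipase gene, had -0.38 ± 0.21 (adjusted p = 0.0363), and its other probes had -0.37, -0.36 and -0.23. The list's median was 0.02, and it was negative without array 3 (-0.02) and over probes above background in both channels on all arrays (-0.09).

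Of 6 genes of the habenula, which borders the thalamus and also uses Slc17a6, 3 were called towards Cy3 (9.20% of all genes). No habenular gene was called towards Cy5 by limma or had an unadjusted p under 0.05 there, although 1 was called without array 1. Pou4f1, a transcription factor gene of that region, had -1.26 ± 0.28 (SD, n = 3 arrays, limma adjusted p = 0.00154) and was well above background in Cy5 on 1 array. Chrna3, a nicotinic receptor gene, stayed at background in Cy5 throughout, with a log2 ratio of -0.45 ± 0.08 (adjusted p = 0.0134). The bound for Chrna3, 1.36-fold, was set by its own Cy5 signal and so equals the measured ratio. It comes from channel values and is open to dye bias. Nhlh2 had -0.47 ± 0.24 (adjusted p = 0.0237). The median of the list was -0.22, but 0.02 over probes above background in both channels on all arrays. Of the calls towards Cy3, 1 was counted over those probes, with plain background subtraction, with the processed signals and without pairing. The part of habenular RNA in the Slc17a6 ratio was not tested.

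Cajal-Retzius cells, early neurons of the cortical surface that also use Slc17a6 and Calb2, gave 3 of 8 genes brighter in Cy5 and 1 in Cy3. The shares of all genes were 7.97% and 9.20%. Cacna2d2 had 0.40 ± 0.21 (SD, n = 3 arrays, limma adjusted p = 0.0310), Ebf2 0.25 ± 0.06 (adjusted p = 0.0487) and Reln, the defining gene, 0.34 ± 0.22 (adjusted p = 0.0494), while Nhlh2 is the habenular gene given above. The list thus held calls in both directions, and its part in the Slc17a6 and Calb2 ratios was not tested. Between 0 and 3 of these genes were called brighter in Cy5 over the alternatives. None was without pairing, with the processed signals or with plain background subtraction.

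All 6 genes of layer 4, the cortical layer that receives thalamic axons, were brighter in Cy5 (7.97% of all genes). This held at the brightest probe of each, with a median of 0.40. Cux1 was called only at that probe, at 0.25 (limma adjusted p = 0.0487), and its other probes, at 0.22 and 0.007, were not called. Beside Rorb at 1.04, Scnn1a had 0.46 ± 0.07, Rspo1 0.68 ± 0.29 and Kcnip2 0.30 ± 0.04 (SD, n = 3 arrays, limma adjusted p = 0.0118, 0.0133 and 0.0310). None was brighter in Cy3, also at an unadjusted p under 0.05. Over the alternatives 2 to 6 of the 6 were called, 2 without pairing and 3 without array 3, and the median stayed between 0.36 and 0.59. The list was written with the ratio of Rorb known.

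Interneuron genes, which bear on Calb2 and Slc17a8, went both ways, with 4 of 12 brighter in Cy5 and 5 in Cy3. Npy had 0.83 ± 0.24 and Cck 0.59 ± 0.14, while Dlx1 had -0.56 ± 0.14 and the cannabinoid receptor gene Cnr1 -0.48 ± 0.12 (SD, n = 3 arrays, limma adjusted p = 0.00565, 0.00804, 0.00913 and 0.0126). The median of -0.10 turned to 0.04 with median centring, where 4 were called towards Cy5 and 1 towards Cy3. The counts were 2 and 1 with the processed signals, 2 and 2 without pairing, and 2 and 3 without array 3, and with plain background subtraction no interneuron gene was called.

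Striatal genes, from the region below the cortex, leaned towards Cy5, with 9 of 12 called there (7.97% of all genes). No striatal gene was called towards Cy3, also at an unadjusted p under 0.05. Ebf1 had 0.60 ± 0.24, Penk 1.08 ± 0.56, Adora2a 0.71 ± 0.41 and Tac1 0.83 ± 0.54 (SD, n = 3 arrays, limma adjusted p = 0.0136, 0.0139, 0.0209 and 0.0245). The list's median was 1.06, 0.19 and 0.68 on arrays 1, 2 and 3. Prkcd had 0.58, 0.57 and 0.45 at one probe and 0.44, 0.41 and 0.45 at the other on the same arrays, and the part of striatal RNA in these ratios was not tested. None of the striatum calls was kept without pairing, with the processed signals or with plain background subtraction, and 5 were counted without array 1.

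The remaining lists covered hippocampus, glia and vessels, neurons and cortex, and choroid plexus. With 1 probe per gene, 17.2% of all genes tested were called in either direction. Of 8 hippocampal genes, 2 were brighter in Cy5 (C1ql2 at 0.44, above background in Cy3 on 1 array, and Meis2 at 0.38) and 1 in Cy3 (Neurod6 at -0.38). Of 14 genes of glia, microglia and vessels, 2 were brighter in Cy5 (Cldn5 at 0.30 and C1qa at 0.32) and 1 in Cy3 (Gfap at -0.32, with other probes at -0.22 and 0.07). Without pairing no gene of these 2 lists was called, and no glial or vessel gene was called with the processed or plainly subtracted signals or without array 3. Of 10 neuron and cortex genes, 4 were brighter in Cy5, among them Rbfox3 at 0.35, Bcl11b at 0.39 and Stmn2 at 0.29, and 2 in Cy3, among them Snap25 at -0.44. With median centring 7 of these 10 were called towards Cy5 and 0 towards Cy3, and their median was 0.52 in place of 0.13. Their counts were 1 and 0 without pairing, 0 and 1 without array 3, and 0 and 0 with the processed or plainly subtracted signals. Of 6 choroid plexus genes none was called by limma (2 at an unadjusted p under 0.05), and their median was -0.26, 0.55 and 0.13 on arrays 1, 2 and 3. Without array 1, 1 choroid plexus gene was called brighter in Cy5, and without array 2, 1 in Cy3. The part of these cells and regions in the ratios of the 10 genes was not tested.

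**Figure D4:**
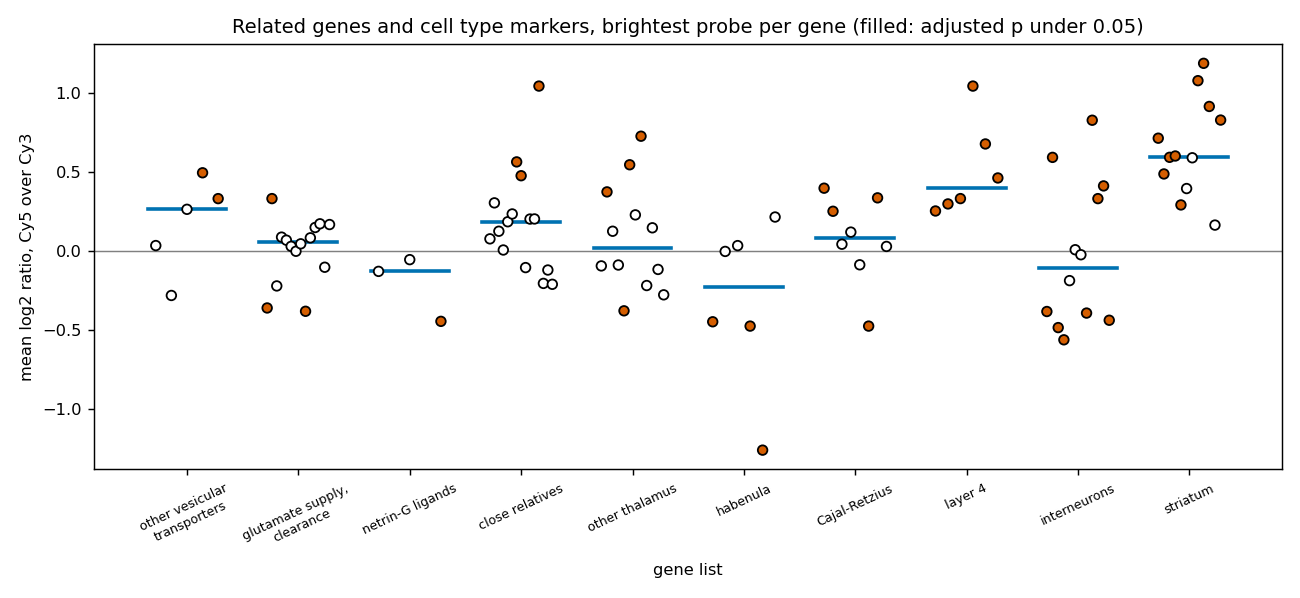
Mean log2 ratio of Cy5 over Cy3 for each gene of 10 lists (brightest probe per gene, filled where the adjusted p was under 0.05, blue line the median). All 6 layer 4 genes and 9 of 12 striatum genes are filled above 0, and thalamus genes lie on both sides.

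**Figure D5:**
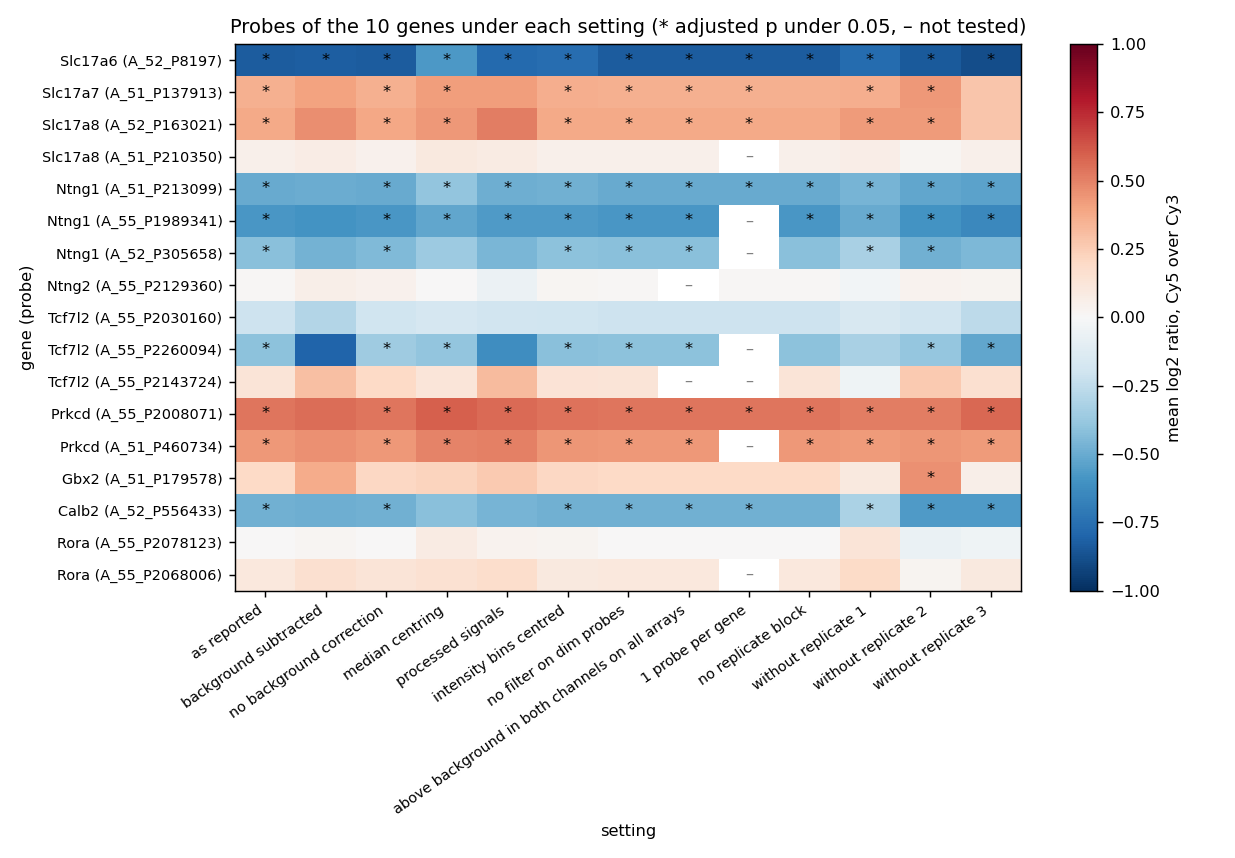
Mean log2 ratio of the 17 probes (rows) as reported and under each alternative (columns), with asterisks at an adjusted p under 0.05 and dashes where a probe was not part of the fit. Slc17a6 is called in every column, and the calls of Slc17a7, Slc17a8, Tcf7l2 and Calb2 are lost in several.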

How the data were processed

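Dorsal cortex RNA (350 ng) underwent 1 amplification round, as the labels' protocols state. The deposited scanner files hold the intensity of each spot, as the median of its pixels and of its local background without normalization, from the scanner software (Agilent Feature Extraction 10.7.3.1, grid build mm9), per the file headers. Also deposited are processed intensity values (background-subtracted and dye-normalized), used in an alternative only, a log10 ratio, which was not used, and flags. The authors' deposited table gives log2 fold changes, t and log-odds scores and p-values from limma, per the submitters' processing notes. The direction of its ratio is not given in the sources used here.

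Medians were corrected with normexp (offset 50), normalized by loess within arrays and averaged over spots of a probe in limma 3.58.1 under R 4.3.3. Control spots had no weight in the loess fit, while outlier spots took part in it, and both were left out of the probe averages. The log2 ratio was tested against 0 over 32973 of 55681 probes with Benjamini-Hochberg adjustment and a threshold of 0.05. A run of the fit on simulated data planted changes in bright probes only, with no dye effect particular to a probe. It therefore says nothing of dim probes or of dye bias. Of the probes, 27656 were named through RefSeq accessions and 4082 through the authors' table, which stops at p = 0.458, so which probes it could name was not independent of their result. Channel values come from loess and Aquantile normalization. For a probe above background on no array of a channel, the bound compares the brighter mean with a floor per array, set by the weakest well-detected signal or by the probe itself if higher. The arrays pair the channels, and deviations from the channel means correlated within an array at 0.560, 0.254 and 0.456. The 10 genes and all lists were chosen with earlier results of these data known. The rule for names took Brpf1, all 10 genes, up to 4 called genes per list, and the 3 genes nearest to Slc17a6. Apart from that rule, Cux1 is named for its differing probes. Of the genes this rule names, 2 are not reported here. List values use the brightest probe of each gene. The number of arrays limits the precision.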

Additional observations from a re-analysis of the deposited data

How the results depend on the processing

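Of the 17 probes, none that was called changed sign under 12 alternatives. Slc17a6 was called in 12 of 12 (log2 ratio -0.89 to -0.57, adjusted p up to 0.0385). Plain background subtraction called 0 of the 17 brighter in Cy5 and 1 in Cy3, against 294 and 156 of all probes. The processed signals called 2 and 3, against 679 and 757. Without pairing, in a fit with no replicate block, 2 and 3 were called, against 561 and 408. Median centring called 4 and 4, against 5440 and 1324 of all probes, or 80.4% of calls in Cy5 in place of 44.4%. The share was 65.3% with background subtraction and 57.9% without pairing. With 1 probe per gene, 3 of 10 genes were called in Cy3, since fewer probes were tested. Leaving out 1 array gave 2 to 5 of the 17 in Cy5 and 5 to 6 in Cy3, and 945 to 2203 and 1369 to 3501 of all probes, the lowest without array 3. Of other list genes, Map2 turned from -0.25 to 0.23 with median centring. The cause of these shifts was not tested. Dim probes (Ntng2, Gbx2, Tcf7l2) limit what could be measured.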
